A study of Arabidopsis thaliana with 6 samples.

Results

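The thalianol and marneral gene clusters of Arabidopsis thaliana are 2 short runs of neighbouring genes on chromosome 5 whose enzymes make root triterpenes. Their 7 genes were taken by locus tag, AT5G47980, AT5G47990, AT5G48000 and AT5G48010 for thalianol and AT5G42580, AT5G42590 and AT5G42600 for marneral, and all 7 were found among the 27444 nuclear protein-coding genes of the gene table. All material was young leaf tissue of the unmodified accession Columbia-0, grown in soil at 22.5 °C with 8 h of light and 16 h of dark per day. The labels name 2 replicates of chromatin immunoprecipitation with an antibody against monomethylated lysine 27 of histone H3 (H3K27me1), 2 of immunoprecipitation of methylated DNA (MeDIP) with an antibody against 5-methylcytosine (5mC), and 2 MeDIP input samples without antibody. The authors' deposited data used here are a single domain list for each mark, in which every domain has its place and a read count. The lists hold no value per replicate, so no replicate error and no test over samples could be given, and they hold no transcript levels, so that the leaf label was not checked against marker genes. A mark present in few cells and a mark at a low level in all cells cannot be told apart in such whole-leaf samples.

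In plants, genes for successive steps of a specialised metabolite are sometimes neighbours, although the enzymes belong to unrelated families. An oxidosqualene cyclase folds oxidosqualene into a triterpene, which cytochrome P450 enzymes oxidise and acyltransferases modify. The thalianol and marneral clusters are known for expression in roots and silence in leaves, where they lie in chromatin with trimethylated lysine 27 of histone H3, the Polycomb mark. H3K27me1, the mark profiled here, is instead typical of constitutive heterochromatin and is placed there by ATXR5 and ATXR6. 5mC marks transposons and repeats, and in CG context also the bodies of many expressed genes.

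No base of either cluster lay in an H3K27me1 domain. The 5mC domains, 3 in the thalianol span and 1 in the marneral span, lay mostly between the genes. They were no wider than the median of their list, 450 bp. A gene was counted as touched when at least 1 bp of its annotated length lay in a domain. H3K27me1 touched 0 of the 7 genes, where 21.0% of 24972 protein-coding genes on the chromosome arms were touched. 5mC touched 1 of the 7, CYP708A2, where 13.1% of arm genes were touched. None of the 7 had 50% or more of its length under either mark, where 6.14% of arm genes had for H3K27me1 and 1.85% for 5mC. All these counts are too small to set the clusters apart from other arm genes. Restricting the comparison to the 15099 arm genes between 1630 and 4870 bp, the length range of the 7 genes, gave 22.2% for H3K27me1 and 13.8% for 5mC. A gene without a domain is a gene in which none was called. The fewest reads in a listed domain were 114 reads for H3K27me1 and 97 reads for 5mC, so that weaker enrichment would go unlisted.

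The enzyme that opens the thalianol pathway, thalianol synthase THAS1 (AT5G48010, 4870 bp), had no covered base. Its nearest 5mC domain lay 1.54 kb away on the side of CYP708A2, and its nearest H3K27me1 domain lay 1.09 kb away on the other side, in the neighbouring gene AT5G48020. Thalianol hydroxylase CYP708A2 (AT5G48000, 3764 bp) had 216 bp, or 5.74% of its length, in a 5mC domain that reached over its end nearer to THAS1. This overlap came to between 66 and 300 bp when the gene table was displaced by 150 bp to either side. Thalian-diol desaturase CYP705A5 (AT5G47990, 1992 bp) had no covered base, with 5mC at 2.35 kb and H3K27me1 at 16.4 kb. The BAHD-family acyltransferase gene AT5G47980 (1630 bp), at the other end of the cluster, also had none, with 5mC at 1.79 kb and H3K27me1 at 10.5 kb. Within the thalianol cluster, 5mC was thus listed within 2.35 kb of every gene, while H3K27me1 was that close to THAS1 alone.

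The marneral genes had no covered base of either mark. Marneral synthase MRN1 (AT5G42600, 4793 bp) lay farthest from any domain among the 7 genes, 11.5 kb from the nearest 5mC and 27.4 kb from the nearest H3K27me1 domain. Marneral oxidase CYP71A16 (AT5G42590, 2777 bp) lay 7.85 kb from 5mC and 10.5 kb from H3K27me1. The cytochrome P450 gene CYP705A12 (AT5G42580, 1860 bp), at the edge of the cluster, lay 1.80 kb and 3.0 kb from them. MRN1 and CYP71A16 were the genes of the 7 with more than 5.09 kb to the nearest 5mC domain, the median distance of arm protein-coding genes.

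**Figure D1:**
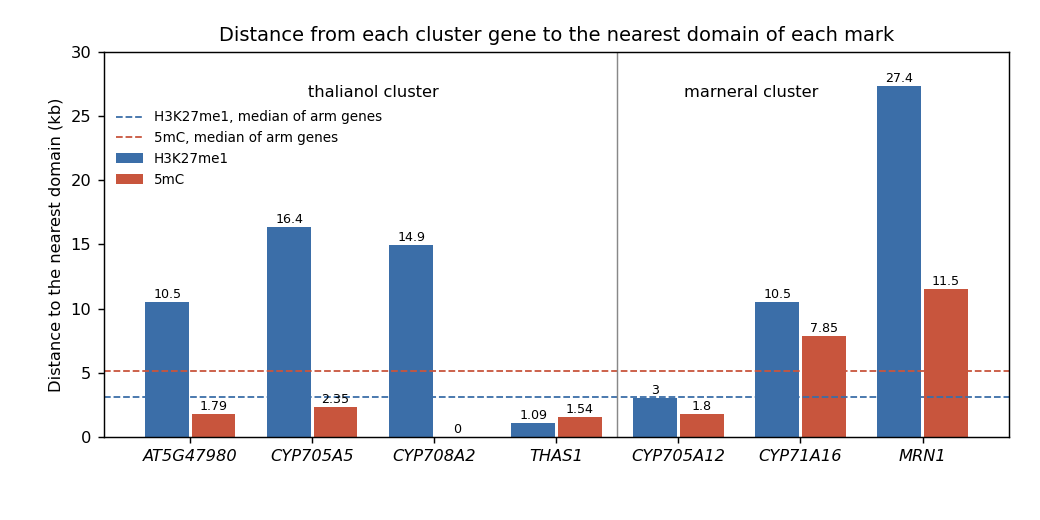
Distance in kb from each of the 7 cluster genes to the nearest H3K27me1 (blue) and 5mC (red) domain, where 0 means that the gene is touched; dashed lines are the medians of 24972 arm protein-coding genes. The blue bars run from 1.09 to 27.4 kb and the red bars from 0 to 11.5 kb, and THAS1 is the gene whose blue bar is the shorter.

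The 2 marks therefore stood at different distances from the genes. The distance to the nearest H3K27me1 domain had a median of 10.5 kb over the 7 genes, against 3.13 kb over arm genes, and 5 of the 7 lay beyond the upper quartile of arm genes, 8.57 kb. The distance to the nearest 5mC domain had a median of 1.80 kb, against 5.09 kb over arm genes, and none of the 7 lay beyond the upper quartile, 12.4 kb. Neighbouring genes measure their distance to the same domains, so the 7 distances are not independent, and no test was made.

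The thalianol span, from the first base of AT5G47980 to the last base of THAS1, is 32.8 kb long, lies 4.03 Mb outside the pericentromere and held 3 5mC domains. The first, on chromosome 5 from 19439101 to 19439550 (TAIR10), was 450 bp wide with 669 reads and lay between CYP705A5 and CYP708A2 without touching an annotated gene. The second, from 19447651 to 19447950, was 300 bp wide with 355 reads and is the one at the end of CYP708A2. The third, from 19455001 to 19455300, was 300 bp wide with 445 reads and lay between CYP708A2 and THAS1, nearer to THAS1. All 3 were of middling to high density: 81.7%, 73.5% and 87.5% of the 5mC domains of their own width had fewer reads. In the whole 5mC list, 75.7%, 58.2% and 75.6% of domains had fewer reads per kb, so that the one at CYP708A2 was nearest to the middle. None of the 3 had a base in an H3K27me1 domain. Of the 2548 arm 5mC domains of 300 or 450 bp, 78.5% had none either, and the share was 82.0% among the 751 of these that touched no annotated gene.

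Just outside the thalianol span lay the domain with the most reads near either cluster. It was a 5mC domain on chromosome 5 from 19426201 to 19427100, 900 bp wide with 3270 reads or 3633 reads per kb, and 99.5% of the 5mC list had fewer reads per kb. Among the 500 5mC domains of its width, 98.4% had fewer reads. It lay between AT5G47970 and AT5G47980, 0.328 kb from the former and 1.79 kb from the latter, touched no annotated gene and had no base in an H3K27me1 domain. The other domain within 10 kb was the H3K27me1 domain in AT5G48020, from 19462801 to 19463400, with 228 reads. That one was low in density, with 20.9% of its list below it in reads per kb and 40.4% of the domains of its width below it in reads.

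**Figure D2:**
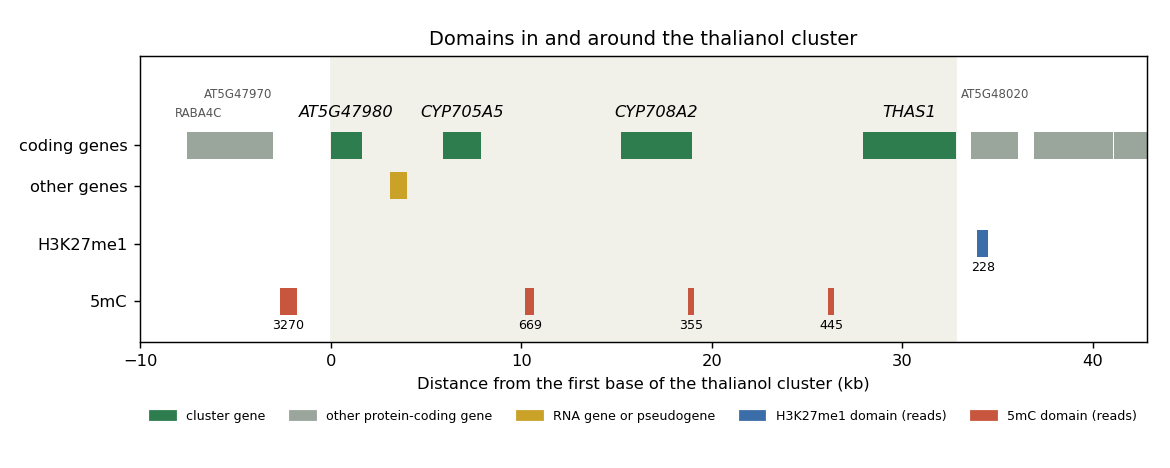
Map of the thalianol cluster (shaded) with 10 kb on each side; the x axis is the distance in kb from the first base of AT5G47980, and numbers under the domains are their reads. No H3K27me1 domain lies in the shaded part, 3 5mC domains do, and the 5mC domain with 3270 reads lies just left of it.

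The marneral span, from CYP705A12 to MRN1, is 34.7 kb long, lies 1.62 Mb outside the pericentromere and held a single domain. This 5mC domain, from 17041651 to 17041950, was 300 bp wide with 254 reads and lay between CYP71A16 and MRN1, 7.85 kb from the former. Among the 5mC domains of its width, 41.9% had fewer reads. In the whole 5mC list, 29.6% of domains had fewer reads per kb, so that its density was below the middle. RNA genes are annotated between CYP71A16 and MRN1, and none had a covered base. One of them, AT5G00580, is known as MARS, a long noncoding RNA with a role in the control of this cluster, and lay 3.35 kb from the 5mC domain and 24.8 kb from the nearest H3K27me1 domain. The lncRNA gene AT5G07035 of the thalianol span had no covered base either.

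The edge of the marneral cluster differed from its inside, because both marks were present within 10 kb on the side of CYP705A12. The short protein-coding gene AT5G42567 held an H3K27me1 domain with 186 reads and a 5mC domain with 606 reads, both from 17018101 to 17018400. The transcribed pseudogene AT5G42565 lay entirely in an H3K27me1 domain from 17019901 to 17020500 with 258 reads, and 86.2% of it lay in a 5mC domain from 17020051 to 17020350 with 582 reads. These 2 5mC domains were dense, with 96.6% and 96.1% of the domains of their width below them in reads. Another 5mC domain, with 283 reads, covered 19.9% of AT5G42570, the next gene before CYP705A12. On the MRN1 side no domain of either mark lay within 10 kb.

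**Figure D3:**
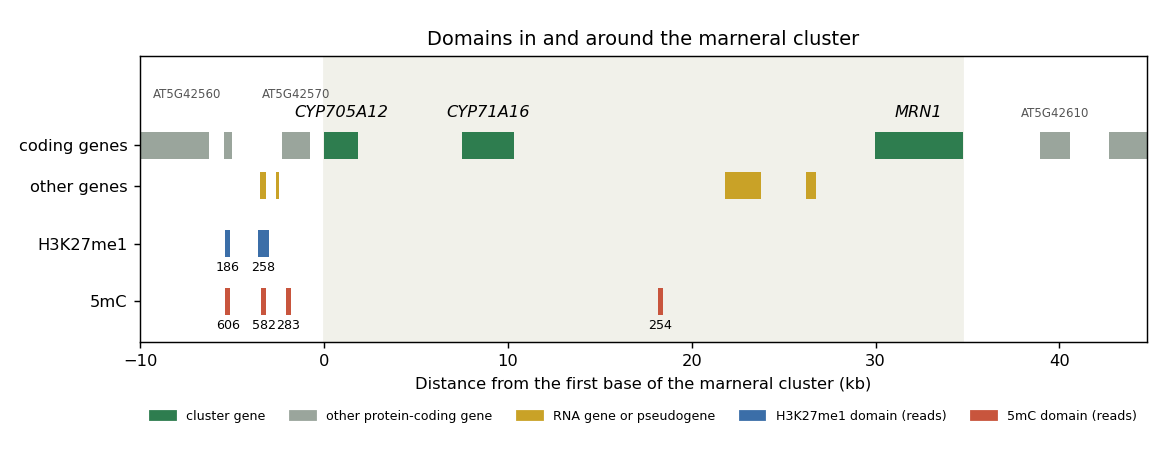
Map of the marneral cluster (shaded) with 10 kb on each side; the x axis is the distance in kb from the first base of CYP705A12, and numbers under the domains are their reads. The shaded part holds a single 5mC domain of 254 reads, and the 2 H3K27me1 domains lie left of it, each over a 5mC domain.

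Set against the arms as a whole, the spans were poor in protein-coding sequence and free of H3K27me1. Protein-coding genes filled 37.3% of the thalianol span and 27.1% of the marneral span, against 64.7% of all arm bases. The 5 intervals between neighbouring cluster genes were 4240 to 19652 bp long, where the median arm interval was 790 bp, and 0.0511% of arm intervals were as long as the one between CYP71A16 and MRN1. 5mC domains covered 3.20% of the thalianol span. Windows of that length tiled over the arms had a median of 2.29%, with quartiles of 0.914 and 5.03%, so that the thalianol span lay between the quartiles. The marneral span had 0.863% in 5mC domains, at the lower quartile of its windows, 0.863%. H3K27me1 covered 0% of both spans, against medians of 4.57% and 4.96% for windows of the 2 lengths. Windows without any H3K27me1 domain were not rare: they were 12.0% of 2798 windows of the thalianol length and 10.2% of 2645 windows of the marneral length. Among windows with less than 40% protein-coding sequence, 24 of 189 (12.7%) and 13 of 178 (7.30%) had no H3K27me1 domain. These coding-poor windows had more 5mC than the arms as a whole, with medians of 7.77% and 8.20% for the 2 lengths, so that both spans, at 3.20% and 0.863%, lay below them.

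The long intervals between the cluster genes were also set beside other arm intervals between protein-coding genes of 4240 to 19652 bp. H3K27me1 touched 0 of the 5 cluster intervals, and 28.4% of 1781 arm intervals. 5mC touched 3 of the 5, and 40.9% of arm intervals. The arm intervals share the length range of the 5 but were not matched to them in length. Of all arm intervals, 8.33% were at least 4240 bp long and 2.39% at least 7353 bp, so that shorter ones prevail in the comparison. A longer interval is more easily touched, and counts out of 5 are too small to set the cluster intervals apart. Many arm intervals of this length hold pseudogenes, among which the gene table counts transposons, whereas none of the cluster intervals does. Among the 1298 arm intervals without a pseudogene, H3K27me1 touched 9.86% and 5mC 26.7%. By bases, 5mC domains covered 2.47% of the 5 cluster intervals, 13.7% of all arm intervals of these lengths and 2.67% of those without a pseudogene. H3K27me1 domains covered 0%, 11.95% and 1.03% of them.

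The stretches without H3K27me1 were long. All 4 thalianol genes lay in a single stretch without an H3K27me1 domain, 44.4 kb from 19418401 to 19462800. All 3 marneral genes lay in another of 65.1 kb from 17020501 to 17085600. The median of 7137 such stretches on the arms was 6.30 kb, and these ranked 305th and 92nd by length. Long stretches hold much of the sequence, however: 21.9% of the arm bases between H3K27me1 domains lay in stretches at least as long as the thalianol one, and 8.81% in stretches at least as long as the marneral one. For 5mC, the clusters were divided. AT5G47980 and CYP705A5 shared a stretch of 12.0 kb, and THAS1 lay in one of 38.4 kb. CYP705A12 and CYP71A16 lay in one of 19.95 kb and MRN1 in one of 30.3 kb. The median over 5793 arm stretches was 8.55 kb. Of the arm bases between 5mC domains, 83.8%, 40.3%, 68.2% and 51.2% lay in stretches at least as long as these, in the order given. Stretches of 8.1 and 7.05 kb in the thalianol span held no whole cluster gene.

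**Figure D4:**
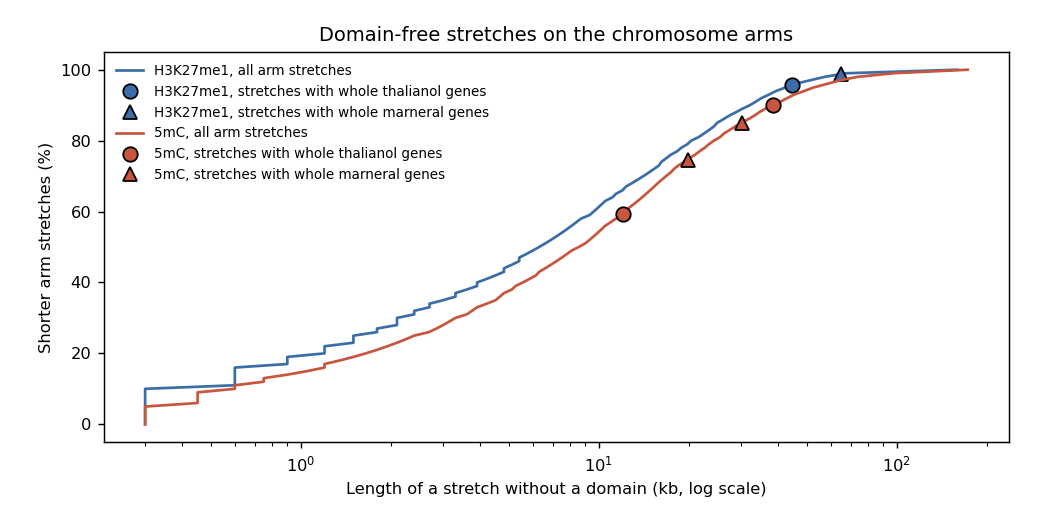
Cumulative share of arm stretches without a domain (y axis, % of stretches that are shorter) by length in kb on a log axis, for H3K27me1 (blue) and 5mC (red). Symbols mark the stretches that hold whole thalianol (circles) or marneral (triangles) genes; the blue ones, at 44.4 and 65.1 kb, sit near the top of the curve.

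The wider thalianol region also includes AT5G47950, another BAHD-family acyltransferase gene, separated from AT5G47980 by RABA4C and AT5G47970. AT5G47950 differed from the 4 core genes in its H3K27me1: 73.3% of its 1638 bp lay in a domain from 19417201 to 19418400 with 623 reads, and it had no base in 5mC domains. The same mark covered 50% or more of the gene in 6.14% of arm genes. RABA4C, a small GTPase of the Rab family, and AT5G47970 had no base in either list. Of the 10 genes next to the thalianol cluster, 5 on each side, 3 were touched by H3K27me1 and 0 by 5mC. The other 2 with H3K27me1 were AT5G48020, with 24.4% of its length, and AT5G48060, with 15.9%. Of the 10 next to the marneral cluster, 2 were touched by H3K27me1 and 4 by 5mC. Besides the 3 at the CYP705A12 side, 5mC covered all 499 bp of AT5G42635, the fourth gene beyond MRN1. Among all arm protein-coding genes, 21.0% were touched by H3K27me1 and 13.1% by 5mC. Counts out of 10 are too small to set the neighbours apart, and those of the marneral cluster include pseudogenes and an lncRNA gene.

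Related enzymes elsewhere in the genome held some domains of both marks. Of the 11 other oxidosqualene cyclase genes, 2 (18.2%) were touched by H3K27me1 and 4 (36.4%) by 5mC, against 21.0% and 13.1% of arm genes. The H3K27me1 share is thus near that of arm genes, and of the 4 genes with 5mC, CAS1 and PEN3 lie in pericentromeres, outside the arms. Most of the 11 are longer than 4870 bp, the longest of the cluster genes, and a longer gene is more easily touched. The arm genes were not matched to them in length, and counts out of 11 are too small to set the cyclases apart. Beta-amyrin synthase BAS was covered by H3K27me1 over 26.3% of its length and had no 5mC. Lanosterol synthase LAS1 had 2.33% and 5.35%. Cycloartenol synthase CAS1, which opens sterol synthesis, had 2.35% in 5mC domains alone, PEN3 had 2.69% and PEN6 (AT1G78500) 8.03%. The lupeol synthases LUP1 and LUP2, camelliol C synthase CAMS1, LUP5, PEN1 and baruol synthase BARS1 had no covered base, as THAS1 and MRN1 had none. PEN1 and BARS1 belong to another triterpene cluster, the arabidiol and baruol cluster on chromosome 4. All 8 genes listed for it were free of both marks, as were 17681 of the 24972 arm genes. The 57.7 kb of this cluster held no H3K27me1 domain and 1 5mC domain over 0.260% of its bases. No arm windows of that length were compared.

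The cytochrome P450 subfamilies of the clusters were also compared. Of the 24 other CYP705A and CYP708A genes, 15 (62.5%) were touched by H3K27me1 and 3 (12.5%) by 5mC. Among arm protein-coding genes these shares were 21.0% and 13.1%, so that the 5mC share is near that of arm genes. The 24 genes had a median of 21.7% of their length in H3K27me1 domains. By chromosome, which was a division made after the values were seen, all 11 on chromosome 3 were touched by H3K27me1, over 14.2 to 87.0% of their length, as were 2 of 5 on chromosome 1 and 2 of 4 on chromosome 2. Those on chromosome 3, and some of the others, lie close to further genes of the list and are not independent. On chromosome 2, CYP705A6, with 42.7% of its length in H3K27me1 domains, and CYP705A13 lie in the pericentromere, outside the arms. None of the 4 on chromosome 4, CYP705A1 to CYP705A4 of the arabidiol and baruol cluster, and none of the 3 on chromosome 5, all cluster genes, was touched by H3K27me1. CYP705A23 had 85.6% of its length in H3K27me1 domains and no 5mC, and CYP705A32 had 87.0% and 100%. Over all 228 genes with a CYP symbol, of which 214 lie on the arms, 34.2% were touched by H3K27me1 and 11.0% by 5mC. Of the 4 cytochrome P450 genes in the 2 clusters, 0 were touched by H3K27me1 and 1 by 5mC. Counts out of 4 are too small to set these genes apart.

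CYP708A2 was the cluster gene with a covered base. By the pair of covered shares, measured as a Euclidean distance in percentage points over both marks, the nearest of 65 genes in the lists were CYP705A13 (0% H3K27me1 and 6.25% 5mC, 0.508 points away), PEN6 (2.29 points) and LAS1 (2.37 points). The likeness rests on 2 values per gene, and CYP705A13 lies in a pericentromere.

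Of the 8 enzymes that supply oxidosqualene, 3 were touched by H3K27me1 and 0 by 5mC, where 21.0% and 13.1% of arm genes were, and counts this small do not set the list apart. The 3 were the squalene epoxidases, SQE1 (XF1 in the gene table) over 17.0%, SQE2 over 32.5% and SQE3 over 30.4% of their length. The reductases HMG1 and HMG2 of the mevalonate pathway, the farnesyl diphosphate synthases FPS1 and FPS2 and the squalene synthase SQS1 had no covered base.

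**Figure D5:**
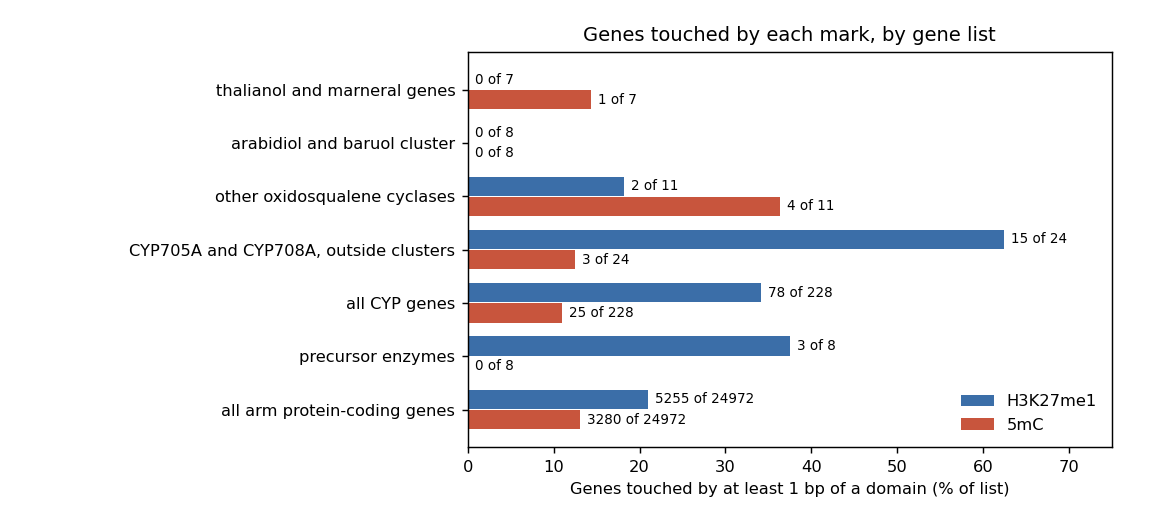
Share of the genes of each list (x axis, %) touched by at least 1 bp of an H3K27me1 (blue) or 5mC (red) domain, with counts beside the bars. The cluster genes stand at 0 of 7 and 1 of 7, and the other CYP705A and CYP708A genes at 15 of 24 and 3 of 24.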

How the data were processed

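Per the submitters' processing notes, Bowtie (an aligner), SICER (a caller of broad domains) and the TAIR10 build were used. How replicates and input samples entered the calls is not given in the sources used here, nor is any threshold or version. The authors' deposited read counts per domain are not normalized and were used only to describe and rank domains within 1 list; the depth of the libraries is not used here. The H3K27me1 list held 13068 domains with 12706852 reads, in steps of 300 bp, and the 5mC list 12238 domains with 28021211 reads, in steps of 150 bp. Positions are printed counting from 1.

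Genes, their lengths and order came from the RefSeq table of assembly TAIR10.1, which gives no strand or exons; none of its coordinates is printed. Its nuclear chromosomes are known to equal those of TAIR10. On chromosome 5, pseudogenes overlapped the domains best within 100 bp of offset 0 in 6 of 6 segments of 5 Mb for each mark. Distances and overlaps of genes and domains carry that uncertainty. Pericentromeres were runs of 100 kb windows with protein-coding coverage, averaged over 11 windows, under 0.7 of the chromosome's median; the arms were the other 92.0 Mb, with 24972 protein-coding genes. Arm windows of the span's length were tiled without overlap.

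Named genes were the 7 cluster genes, the loci AT5G47950 to AT5G47970, 5 neighbours on each side, genes with a domain within 10 kb, and lists of oxidosqualene cyclases, CYP705A and CYP708A genes, the arabidiol and baruol cluster and precursor enzymes. The genes and lists were chosen with earlier results of these data known. The division of CYP705A and CYP708A genes by chromosome, the limit of 40% on protein-coding sequence and the comparisons of stretches and intervals were added after the values were seen. Alternatives were the domain width and density, joining of domains, moving the gene table, the overlap required and the flank width. Overlap and distance code was tested on simulated data. Python 3.11.15, NumPy 2.4.6, SciPy 1.17.1 and Matplotlib 3.10.9 were used.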

Additional observations from a re-analysis of the deposited data

How the results depend on the processing

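No paired analysis was possible because the lists hold 1 value per domain and none per replicate, and for the same reason no replicate could be left out. No H3K27me1 was found in the 7 genes or the core spans under any alternative, but most alternatives could not have changed this. Stricter limits on domains or overlap can only remove overlap. Shifts of 150 bp and joins of 300 bp fall short of the nearest H3K27me1 domain, 1.09 kb from THAS1. Starting the thalianol span at AT5G47950 added that gene's domain and gave 2.69%. With domains of at least 1000 bp only, which leaves out all domains near the clusters, the number of genes touched by 5mC, the 5mC shares of both spans and the numbers of H3K27me1 and 5mC domains within 10 kb of each cluster were all 0. With the denser part of each list, H3K27me1 domains near the thalianol and marneral clusters numbered 0 and 1, 5mC domains near the marneral cluster 2, and the 5mC share of the marneral span was 0%. With flanks of 20 kb, 3 H3K27me1 domains lay near the thalianol cluster, and with flanks of 5 kb, 1 lay near the marneral cluster. Requiring 10% or 50% of the gene to be covered left 0 cluster genes and 0 other cyclases touched by 5mC. Other cyclases touched by H3K27me1 then numbered 1 and 0. At 50%, 4 CYP705A and CYP708A genes outside the clusters were touched by H3K27me1 and 1 by 5mC. These changes follow from the stricter or wider criterion itself. Of 72 alternative values, 51 stayed within 1.5 times the main count or within its 95% binomial interval over calling windows. Calling windows of a domain are not independent, so this interval is no replicate error, and 2.69% against 0% counted as unchanged. Many of the other values could not differ from a main value of 0, so the tally is not a measure of stability. The 5mC in CYP708A2 lies at the gene's end: it was 66 bp or 300 bp when the gene table was moved by 150 bp to the left or right. Neither list gives a depth, so that weak enrichment could go uncalled.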
